A study of Homo sapiens with 2 samples.

Results

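DNA methylation of 10 imprinted genes that lie outside the large imprinted clusters was described in SH-SY5Y cells given Mdivi-1 or DMSO, the vehicle control. The genes were PLAGL1, HYMAI, DIRAS3, PEG3, MEST, PEG10, SGCE, GRB10, NAP1L5 and L3MBTL1. A CpG was taken when the deposited annotation places it in a promoter of one of these genes, or in the gene itself outside intergenic sequence, on an autosome and with at least 10 reads in both libraries. This gave 1763 CpGs of 2458269 autosomal CpGs measured at that depth, and 10 of 22658 genes with a measured autosomal promoter. In all, 707 of them lay in a promoter of one of the genes and 623 in 12 CpG islands, and 179 belonged to more than 1 of the genes. The table lists 1875 positions for these genes, and those not kept had fewer than 10 reads in a library. The 22 CpGs whose shallower library had 9 reads averaged 54.9% in the Mdivi-1 library and 45.0% in the DMSO library. The 26 CpGs at 10 reads averaged 64.0% in the Mdivi-1 library and 59.1% in the DMSO library.

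SH-SY5Y is an established human neuroblastoma line with features of sympathetic neurons. Mdivi-1 is a compound widely used as an inhibitor of mitochondrial division, and its dose and time of exposure are not given in the sources used here. Each condition was 1 library of bisulfite-converted DNA enriched by methyl capture, 2 libraries altogether, and differences between them are therefore not checked by replicates. At the CpGs of the 10 genes the depth averaged 63.7 reads in the Mdivi-1 library and 53.7 reads in the DMSO library. Promoters of 11 of 14 listed marker genes of blood, epithelium, endothelium and fibroblasts had medians of 26.3% in the Mdivi-1 library and 21.9% in the DMSO library. Both medians are the values of KRT8, and the median of the differences was 0.978 points. Expression of these markers was not measured here.

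At an imprinted gene, one parental copy carries DNA methylation that was laid down in the germ line and is then kept through cell division, so that the other copy alone is transcribed. A region methylated on one parental copy reads near the middle of the scale in bulk DNA. The genes described here are known for expression from the paternal copy and a methylated maternal copy, GRB10 depending on tissue and start site. The zinc finger protein ZFP57 binds the methylated hexamer TGCCGC and helps to keep such imprints in the early embryo. Reads were not assigned to parental copies, and the number of copies of each locus was not measured. A level near the middle therefore cannot be told apart from a mixture of cells.

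Promoter sequences from RefSeq (build GRCh38.p14) were matched by symbol for 7 of the 10 genes, with 19 distinct windows of 250 bases before to 50 bases after a start. Of the windows, 9 held TGCCGC or its reverse complement GCGGCA, both strands being searched, against 16.7% of all 34943 distinct windows. Each of the 7 genes had at least 1 such window, but the share over all genes was not computed. Some MEST windows overlap and hold the same copies, so the 9 are not all separate. The hexamer holds a CG. Windows of the 7 genes with the hexamer had from 13 (MEST) to 44 (GRB10) CG dinucleotides, against a median of 14 over all windows. The windows below are shown because they differ in how many copies of the hexamer they hold and on which strand, and capitals mark the hexamer. HYMAI and PLAGL1 share the first window, which holds the hexamer on both strands. The distal PLAGL1 window holds none, although it has 31 CG dinucleotides. NAP1L5 has 2 copies on the printed strand, DIRAS3 has 1 on each strand, overlapping in a palindrome, and the MEST window shown, 1 of 5, has 3, of which 2 overlap in the same way. These windows were not placed on the hg19 positions of the methylation table.

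HYMAI and PLAGL1, chr6:144008210-144008509, minus strand: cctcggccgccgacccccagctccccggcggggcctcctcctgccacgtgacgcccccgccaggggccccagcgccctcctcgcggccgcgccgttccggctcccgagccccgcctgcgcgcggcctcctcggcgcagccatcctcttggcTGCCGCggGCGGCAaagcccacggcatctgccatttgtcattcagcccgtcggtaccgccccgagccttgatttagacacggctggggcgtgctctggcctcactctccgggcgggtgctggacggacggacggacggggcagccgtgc
PLAGL1 distal start, chr6:144064550-144064849, minus strand: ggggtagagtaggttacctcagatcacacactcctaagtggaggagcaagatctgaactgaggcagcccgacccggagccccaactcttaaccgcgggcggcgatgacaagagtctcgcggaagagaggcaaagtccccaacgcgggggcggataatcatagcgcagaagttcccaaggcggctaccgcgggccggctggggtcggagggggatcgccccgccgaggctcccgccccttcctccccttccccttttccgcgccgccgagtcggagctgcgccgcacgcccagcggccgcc
NAP1L5, chr4:88697780-88698079, minus strand: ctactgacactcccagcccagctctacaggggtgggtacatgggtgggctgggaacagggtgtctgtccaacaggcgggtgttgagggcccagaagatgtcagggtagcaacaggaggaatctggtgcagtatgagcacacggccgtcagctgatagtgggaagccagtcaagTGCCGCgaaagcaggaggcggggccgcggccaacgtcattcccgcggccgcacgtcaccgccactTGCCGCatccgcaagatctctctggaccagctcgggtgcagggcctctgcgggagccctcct
DIRAS3, chr1:68050578-68050877, minus strand: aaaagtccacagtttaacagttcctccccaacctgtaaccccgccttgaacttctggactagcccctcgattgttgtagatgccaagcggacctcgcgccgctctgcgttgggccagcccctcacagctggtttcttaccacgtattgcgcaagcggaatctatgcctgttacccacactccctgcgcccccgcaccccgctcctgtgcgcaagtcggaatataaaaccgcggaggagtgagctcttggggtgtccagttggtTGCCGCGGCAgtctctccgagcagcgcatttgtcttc
MEST, chr7:130491835-130492134, plus strand: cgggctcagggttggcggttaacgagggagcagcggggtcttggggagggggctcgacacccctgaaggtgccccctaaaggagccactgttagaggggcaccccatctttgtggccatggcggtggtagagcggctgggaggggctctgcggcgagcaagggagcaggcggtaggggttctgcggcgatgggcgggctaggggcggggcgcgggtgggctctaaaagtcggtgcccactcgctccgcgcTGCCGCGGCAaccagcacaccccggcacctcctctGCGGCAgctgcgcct

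In both libraries the 12 islands spanned nearly the whole range of methylation, and the differences between libraries were small beside the differences between loci. PLAGL1 island 1, at the distal start, was at 5.28% in the Mdivi-1 library and 6.25% in the DMSO library. Islands of PEG3, HYMAI/PLAGL1, GRB10, PEG10/SGCE and the second L3MBTL1 island had averages between 29.2% and 69.2%. The measured islands of DIRAS3, MEST and the PEG10 gene body were above 90% in both libraries. The first L3MBTL1 island was at 85.0% and 83.6% in the Mdivi-1 and DMSO libraries. Of the 12 islands, 6 averaged between 20 and 80% over both libraries, as did 25.2% of the islands measured on the autosomes. Of single CpGs, 44.3% of those of the 10 genes lay between 20 and 80%, against 18.9% of all autosomal CpGs.

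**Figure D1:**
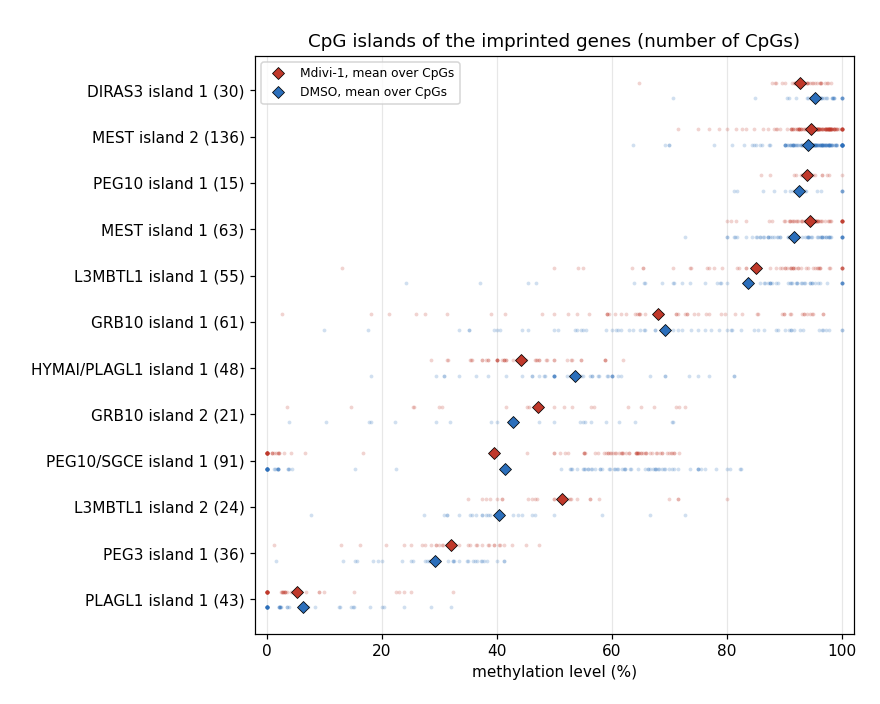
Methylation level in percent of the 12 CpG islands of the imprinted genes, ordered by the DMSO level, with Mdivi-1 above DMSO in each row; diamonds are means over CpGs, faint points are single CpGs, and the number of CpGs is in parentheses. PEG10/SGCE island 1 shows a group of CpGs near 0 and a group near 60%, whereas the HYMAI/PLAGL1 island has all 48 CpGs between 20 and 80% in the level pooled over both libraries.

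PLAGL1 encodes a zinc finger transcription factor linked to transient neonatal diabetes, and HYMAI is a noncoding RNA that starts at the same imprinted promoter. Their shared island (chromosome 6, 144329209 to 144329847, hg19) was at 44.3% in the Mdivi-1 library and 53.6% in the DMSO library over 48 measured CpGs, of 118 annotated. It was shallow, with 19.1 reads per CpG in the Mdivi-1 library and 17.96 reads in the DMSO library. The difference was -9.34 percentage points, with 36 CpGs lower and 10 higher in the Mdivi-1 library. Counting error was 2.48 points if CpGs are independent and 16.4 points if the same reads, each wholly methylated or wholly unmethylated, cover the whole island. At a minimum of 5 reads the difference was -5.49 points. CpGs annotated as the HYMAI promoter (144329998 to 144330346) were higher, at 74.3% in the Mdivi-1 library and 81.7% in the DMSO library over 9 CpGs. The distal start of PLAGL1 (144385755 to 144386849) was more methylated toward its outer end in both libraries. Its 17 island CpGs and the nearest shore CpGs, 21 in all, were at 11.7% in the Mdivi-1 library and 12.9% in the DMSO library, and its 9 outermost block CpGs were at 84.7% in the Mdivi-1 library and 81.5% in the DMSO library.

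NAP1L5, a single-exon gene of the nucleosome assembly protein family that lies within an intron of HERC3, has no CpG island in the deposited annotation. A stretch of 42 CpGs (chromosome 4, 89618633 to 89619421) was nonetheless at 48.5% in the Mdivi-1 library and 52.0% in the DMSO library. The next block on one side (89618288 to 89618414) was at 43.1% in the Mdivi-1 library and 48.4% in the DMSO library, with all 8 CpGs lower. The 7 CpGs of the block beyond it (89617866 to 89618050) were at 79.6% in the Mdivi-1 library and 82.6% in the DMSO library. The 28 CpGs annotated as its promoter averaged 59.5% in the Mdivi-1 library and 64.6% in the DMSO library. The difference was -5.06 points with 20 CpGs lower and 8 higher, and the counting error was 1.49 points taking CpGs as independent and 8.94 points taking reads as fully shared.

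PEG3, a paternally expressed zinc finger gene, shares its start with ZIM2 and the noncoding MIMT1. Its island (chromosome 19, 57349999 to 57350470) was at 32.1% in the Mdivi-1 library and 29.2% in the DMSO library over 36 CpGs. All 129 promoter CpGs (57349177 to 57353634) averaged 33.6% in the Mdivi-1 library and 31.4% in the DMSO library. Levels varied between neighbouring CpGs, with an SD over CpGs of 17.99 points in the Mdivi-1 library and 17.6 points in the DMSO library. The difference of 2.18 points, with 68 CpGs higher and 58 lower, was 0.952 points when reads were pooled. ZIM2, whose promoter CpGs overlap this stretch, was at 40.3% in the Mdivi-1 library and 36.5% in the DMSO library.

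**Figure D2:**
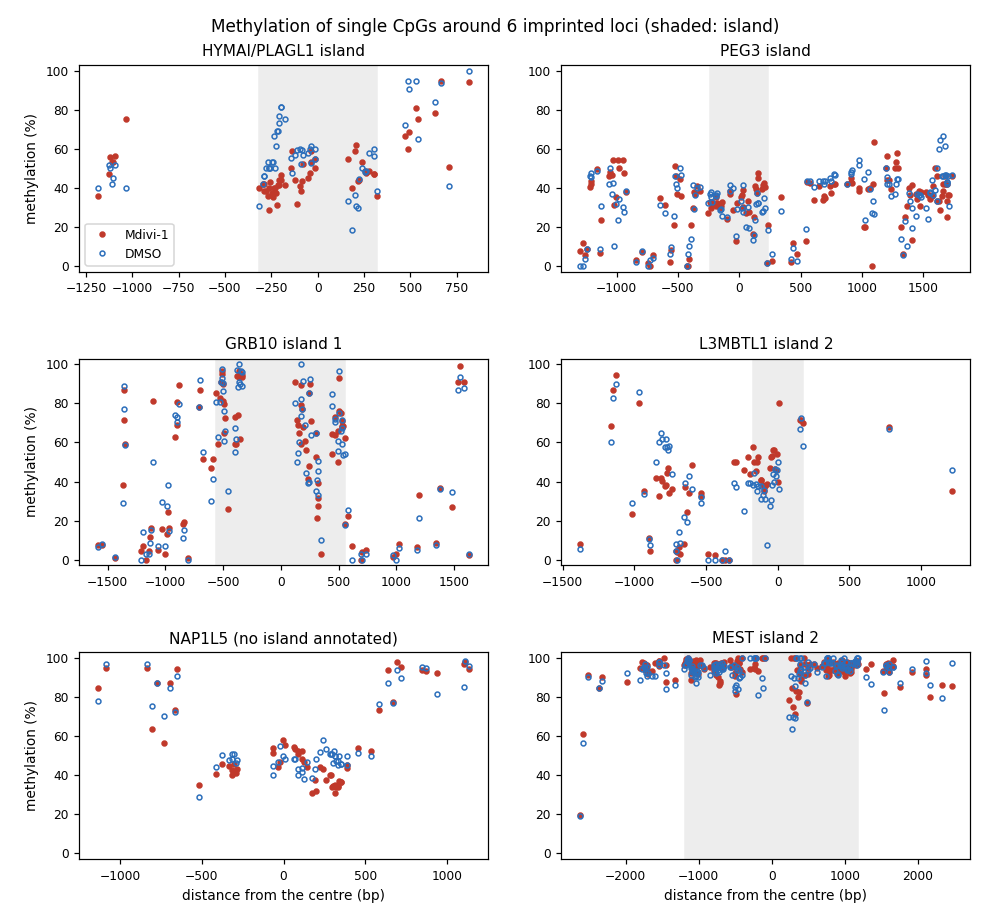
Methylation level in percent of single CpGs against distance in bp from the centre of 5 islands and of the NAP1L5 stretch; filled red points are Mdivi-1, open blue points are DMSO, and shading marks the measured island. NAP1L5 forms a plateau near the middle of the scale between higher flanks, GRB10 CpGs scatter widely in both libraries, and MEST stays near the top of the scale within its island.

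PEG10 and SGCE face each other across 1 shared island on chromosome 7. PEG10 is a retrotransposon-derived gene needed for the placenta in mice, and SGCE encodes epsilon-sarcoglycan, mutated in myoclonus-dystonia. The SGCE side of the island (94284860 to 94285439) was at 0.844% in the Mdivi-1 library and 1.37% in the DMSO library over 33 CpGs. The PEG10 side (94285686 to 94286527) was at 62.2% in the Mdivi-1 library and 64.7% in the DMSO library over 56 CpGs. No CpG of the SGCE side was above 6.67% in the Mdivi-1 library or above 15.4% in the DMSO library. No CpG of the PEG10 side was below 45.2% in the Mdivi-1 library or below 51.1% in the DMSO library. The sides therefore did not overlap in either library.

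The step lay between the last CpG annotated as 5′ untranslated sequence of SGCE and CpGs annotated as 5′ untranslated sequence of PEG10. The last CpG of the SGCE side, at 94285439, was at 0% in both libraries, with 46 reads in the Mdivi-1 library and 32 reads in the DMSO library. At 94285643, 204 bp on, the level was 16.7% in the Mdivi-1 library and 22.5% in the DMSO library. A further 30 bp on, at 94285673, it was 61.8% in the Mdivi-1 library and 75% in the DMSO library. Because the annotation counts the sequence before a start as promoter, the PEG10 promoter was at 2.004% in the Mdivi-1 library and 2.67% in the DMSO library, and the SGCE promoter at 61.8% and 62.2% in the Mdivi-1 and DMSO libraries. The PEG10 side was not uniform between libraries. Its 19 CpGs in 5′ untranslated sequence (94285686 to 94285890) were at 62.5% in the Mdivi-1 library and 71.8% in the DMSO library, all 19 lower, whereas its 36 intronic CpGs (94285932 to 94286527) were at 62.5% and 61.2% in the Mdivi-1 and DMSO libraries. The untranslated stretch was singled out after its values were seen. That stretch differed by -9.31 points, against a counting error of 1.999 points (independent CpGs) or 8.51 points (shared reads). Farther into PEG10, an exonic island (94293611 to 94293864) was at 93.9% in the Mdivi-1 library and 92.6% in the DMSO library.

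**Figure D3:**
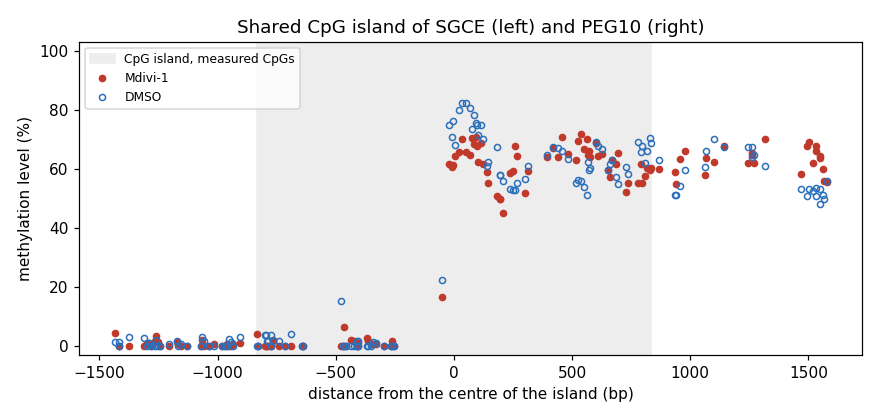
Methylation level in percent of single CpGs across the island shared by SGCE and PEG10, against distance in bp from its centre; filled red points are Mdivi-1, open blue points are DMSO. The 33 CpGs of the SGCE side are at 15.4% or less and the 56 CpGs of the PEG10 side are between 45.2% and 82.4%, over both libraries.

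GRB10, an adaptor protein that restrains insulin and growth factor receptor signalling, has 4 start regions in the promoter annotation, split where CpGs lay over 2000 bp apart. They differed widely within a library. The region at 50773858 to 50774218 on chromosome 7 was at 13.9% in the Mdivi-1 library and 14.5% in the DMSO library. The region at 50800056 to 50801443 was at 5.41% in the Mdivi-1 library and 5.26% in the DMSO library. The region at 50850613 to 50851943 was at 42.5% in the Mdivi-1 library and 43.0% in the DMSO library. The most upstream region (50861392 to 50862267) was at 43.2% in the Mdivi-1 library and 39.0% in the DMSO library, with 28 of 34 CpGs higher. This last difference was 4.16 points, with a counting error of 1.44 points (independent CpGs) or 8.17 points (shared reads).

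GRB10 island 1 (50849754 to 50850871), which covers the third of these regions in part, averaged 68.0% in the Mdivi-1 library and 69.2% in the DMSO library over 61 CpGs. Single CpGs ran from 2.70% to 96.7% in the Mdivi-1 library and from 10% to 100% in the DMSO library. The same CpGs tended to be high or low in both libraries, with a Pearson r of 0.887 over the 61 CpGs, which share reads and sequence context and are not independent. In the HYMAI/PLAGL1 island, where CpGs were all intermediate, the corresponding r was -0.161 over 48 CpGs.

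L3MBTL1, a chromatin-compacting protein with MBT domains whose gene lies in the region of chromosome 20q lost in myeloid disease, had islands at contrasting levels. Island 1 (chromosome 20, 42135795 to 42137062), at the upstream start, was at 85.0% in the Mdivi-1 library and 83.6% in the DMSO library over 55 CpGs. Island 2 (42143212 to 42143559), inside the gene, was at 51.3% in the Mdivi-1 library and 40.5% in the DMSO library over 24 CpGs. Its difference of 10.9 points, with 20 CpGs higher and 3 lower, met a rule of size, which asks for 5 or more CpGs, a mean difference of 10 points or more, and 80% or more of the CpGs sharing its sign. Of the 12 islands, 7 were higher and 5 lower in the Mdivi-1 library, where 56.8% of all islands were higher. Island 2 of L3MBTL1 alone met the rule, where 0.503% of all 20675 measured autosomal islands and 1.79% of those at 20 to 80% did. Depth there was 17.4 reads in the Mdivi-1 library and 14.5 reads in the DMSO library, and the difference exceeded its counting error for independent CpGs, 3.62 points, but not that for fully shared reads, 17.7 points. At a minimum of 5 reads it was 6.21 points and no longer met the rule, and at 20 reads the island was not measured. The neighbouring start region (42142006 to 42143046) differed the other way, with 29.1% in the Mdivi-1 library and 34.4% in the DMSO library. A run of 58 CpGs without a gap over 100 bp (42142366 to 42143395) covers part of each. It was at 35.4% in the Mdivi-1 library and 33.7% in the DMSO library. That run differed by 1.70 points as a mean over CpGs and by -2.41 points with pooled reads.

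MEST, an alpha/beta hydrolase fold gene, and DIRAS3, a RAS-like small GTPase with growth-suppressing activity, were highly methylated at their measured islands. MEST island 1 (chromosome 7, 130126019 to 130126801) was at 94.3% in the Mdivi-1 library and 91.6% in the DMSO library over 63 CpGs. MEST island 2 (130130741 to 130133111) was at 94.7% in the Mdivi-1 library and 94.1% in the DMSO library over 136 CpGs. No CpG of island 1 and 5 of the 136 in island 2 lay between 20 and 80%. Below those levels were 5 CpGs upstream of island 2 (130129209 to 130129410), at 40.4% in the Mdivi-1 library and 37.9% in the DMSO library.

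The DIRAS3 island (chromosome 1, 68512645 to 68513005), annotated as exon and 5′ untranslated sequence, was at 92.7% in the Mdivi-1 library and 95.3% in the DMSO library, with 23 of 30 CpGs lower. A stretch of intron and 5′ untranslated sequence (68515739 to 68516628), annotated as island shelf, was at 63.2% in the Mdivi-1 library and 65.0% in the DMSO library over 46 CpGs. The DIRAS3 promoter (68517316 to 68518309) is annotated as shore of another island, within which no CpG was kept. It was at 65.1% in the Mdivi-1 library and 59.7% in the DMSO library, with 16 of 20 CpGs higher. Its difference was 5.33 points at a depth of 116 reads in the Mdivi-1 library and 106 reads in the DMSO library, with a counting error of 1.496 points (independent CpGs) or 6.50 points (shared reads).

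None of the 10 promoters met the rule of size, which 0.243% of 22658 autosomal promoters and 0.566% of those at 20 to 80% met. Levels were higher in the Mdivi-1 library at 4 promoters and lower at 6, where 58.3% of all promoters were higher. The 10 are not all separate counts, since all 9 HYMAI promoter CpGs are also PLAGL1 promoter CpGs. PEG10 and SGCE share 2 promoter CpGs. The median difference was -0.524 points, against 0.198 points over all autosomal promoters. As means over CpGs, the largest differences in either direction were -7.38 points at HYMAI and 5.33 points at DIRAS3. With pooled reads HYMAI differed by -3.36 points, and NAP1L5 was lowest at -4.98 points. In 5 of the 10 promoters the difference lay within its 95% counting interval for independent CpGs, and in all 10 within that for fully shared reads. The latter takes the same reads to cover all CpGs of a promoter, and is too wide for any promoter longer than its reads. PLAGL1, GRB10, MEST and L3MBTL1 have start regions that lie over 2000 bp apart and share no reads. Long single stretches are found at PEG3 (57349177 to 57353634), SGCE (94285643 to 94287271), PEG10 (94284259 to 94285673), DIRAS3 (68517316 to 68518309) and NAP1L5 (89618983 to 89619838). Lying within this interval says little at such promoters. At MEST the difference was 2.30 points, against an error of 0.460 points for independent CpGs. With pooled reads it was 1.09 points, and at minimums of 20 and 30 reads it was 1.34 and 1.32 points. The start regions likewise had 0 of 17 past the rule, against 0.282% of all autosomal start regions and 0.677% of those at 20 to 80%. The median absolute difference was 1.86 points over the 10 promoters and 1.32 points over autosomal promoters at 20 to 80%.

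**Figure D4:**
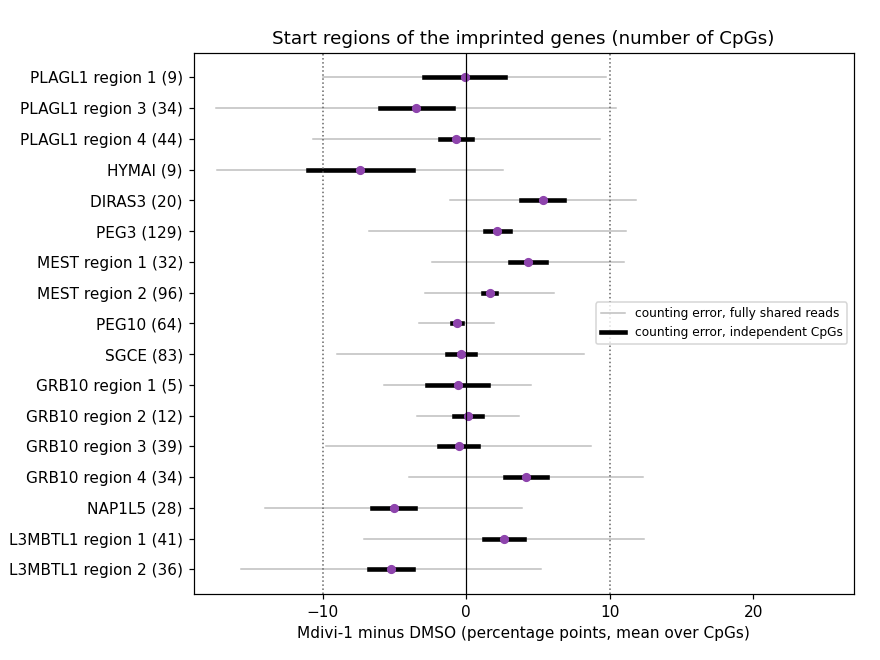
Difference in methylation, Mdivi-1 minus DMSO, in percentage points for the 17 start regions with at least 5 CpGs; points are means over CpGs, thick black lines are 1 counting error for independent CpGs, thin grey lines 1 counting error for fully shared reads, and dotted lines mark 10 points. All points lie between the dotted lines, with HYMAI lowest at -7.38 points and DIRAS3 highest at 5.33 points.

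The reads of each CpG were tested with a two-sided Fisher exact test and Benjamini-Hochberg adjustment over all 2458269 autosomal CpGs, which compares the 2 libraries and not the treatments. Of the 10 genes, 0 CpGs reached both an adjusted p below 0.05 and 20 points, against 15 of all CpGs (0.00061%), and 0 reached that p at any size, against 0.000773% of all. At an unadjusted p under 0.05 there were 52 of 1763, or 2.95%, against 2% of all CpGs. Among CpGs at 20 to 80% there were 29 of 781, or 3.71%, against 4.05% of all CpGs at those levels. Over the 1763 CpGs the differences had a root mean square of 8.76 points, where read counting at equal levels gives 8.65 points.

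The smallest Fisher exact p was 0.00178 at an exonic PEG10 CpG (chromosome 7, 94293229), with 97.6% in the Mdivi-1 library and 88.1% in the DMSO library. An intronic GRB10 CpG (50849207) was at 81.2% of 48 reads in the Mdivi-1 library and 50% of 40 reads in the DMSO library, an exact p of 0.00287. An L3MBTL1 CpG of island 1 (chromosome 20, 42136107) was at 100% of 23 reads in the Mdivi-1 library and 68.8% of 32 reads in the DMSO library, an exact p of 0.00314. The next were a MEST island CpG, with 98% in the Mdivi-1 library and 86.2% in the DMSO library, and a GRB10 intron CpG, with 6.48% in the Mdivi-1 library and 20.4% in the DMSO library. Their adjusted p was 1 in all 5 cases. In the authors' deposited table, 32 of the 1763 CpGs carry a hyper mark and 45 a hypo mark, given for a difference of fractions of at least 0.2. The largest numbers were at L3MBTL1, with 10 hyper and 18 hypo marks on 207 CpGs, and at HYMAI, with 5 hyper and 14 hypo marks on 64 CpGs. Depth was lowest at these genes. It was 38.2 reads in the Mdivi-1 library and 32.9 in the DMSO library at L3MBTL1, and 21.5 and 20.75 reads at HYMAI. Marks were on 4.37% of the CpGs of the 10 genes, against 2.71% of all CpGs. Among CpGs at 20 to 80% they were on 8.71% of those of the 10 genes, against 10.6% of all.

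Grouping CpGs into blocks at gaps over 100 bp, a unit added after seeing the data, gave 76 blocks of at least 5 CpGs. Of these, 3 met the rule of size, where 1.22% of all autosomal blocks and 3.02% of those at 20 to 80% did. All 3 were among the 40 blocks of the 10 genes at 20 to 80%. A block of the HYMAI/PLAGL1 island (144329209 to 144329516) was at 42.7% in the Mdivi-1 library and 57.7% in the DMSO library, with 30 of 35 CpGs lower. That is -15.1 points, against a counting error of 3.02 points (independent CpGs) or 17.5 points (shared reads), at 16.1 reads per CpG in the Mdivi-1 library and 16.5 reads in the DMSO library. The adjacent block of the same island (144329693 to 144329847) was at 48.5% in the Mdivi-1 library and 42.4% in the DMSO library, with 7 CpGs higher and 6 lower. Its difference was 6.05 points as a mean over CpGs, with a counting error of 4.24 points (independent CpGs), and 1.56 points with pooled reads. A block in the shore after the PEG10/SGCE island was at 62.8% in the Mdivi-1 library and 52.1% in the DMSO library over 11 CpGs. That is 10.7 points, against a counting error of 2.98 points (independent CpGs) or 9.58 points (shared reads). A block of 5 CpGs in an L3MBTL1 intron was at 37.3% in the Mdivi-1 library and 49.6% in the DMSO library. Its difference was -12.3 points, against 5.44 points (independent CpGs) or 10.98 points (shared reads). With gaps of 50 bp in place of 100 bp, 6 blocks met the rule, and with gaps of 200 bp, 2 did. The share over all autosomal blocks was not computed at these gaps.

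Other imprinted genes, and neighbours of the 10 genes, were compared as separate lists. Over all autosomal promoters 58.3% were higher in the Mdivi-1 library and 0.243% met the rule of size, with a median difference of 0.198 points. Of 26 measured promoters at other imprinted loci outside the clusters, 20 were higher and 6 lower in the Mdivi-1 library and none met the rule of size, with a median difference of 0.605 points. Some of these promoters cover overlapping stretches, such as NNAT and BLCAP, and are not separate counts. PEG13, a brain-expressed noncoding RNA, was at 48.2% in the Mdivi-1 library and 41.4% in the DMSO library, VTRNA2-1 at 58.9% and 53.9%, and the potassium channel gene KCNK9 at 25.7% and 21.4%, in the same order. With pooled reads VTRNA2-1 differed by -0.0389 points. Of 34 neighbours of the 10 genes, 20 were higher and 14 lower, with a median of 0.388 points and none past the rule. FAM13A was at 35.8% in the Mdivi-1 library and 31.2% in the DMSO library, or -0.873 points with pooled reads, and PON1, a serum paraoxonase gene, was at 77.6% in the Mdivi-1 library and 73.6% in the DMSO library. Of 24 promoters in the large clusters, 13 were higher and 11 lower, with a median of 0.0907 points and none past the rule. There UBE3A, a ubiquitin ligase gene, was at 21.1% in the Mdivi-1 library and 16.8% in the DMSO library, SNURF at 88.3% and 91.0%, and IGF2-AS at 14.7% and 16.9%, in that order. With pooled reads SNURF differed by -0.941 points and IGF2-AS by 0.0798 points, against -2.69 and -2.25 points as means over CpGs.

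Genes that lay down, read or keep imprints had 20 of 29 promoters higher and 9 lower, with a median of 0.720 points, where 58.3% of all promoters were higher. CTCFL, the germline paralog of CTCF, was the only one past the rule, at 49.0% in the Mdivi-1 library and 33.2% in the DMSO library over 5 CpGs, where 0.243% of all promoters and 0.566% of those at 20 to 80% met it. That is 15.8 points higher, against a counting error of 7.66 points (independent CpGs) or 18.9 points (shared reads). KHDC3L, an oocyte gene, was at 78.3% in the Mdivi-1 library and 72.6% in the DMSO library, and the pluripotency zinc finger gene ZFP42 at 94.99% and 89.8%, in the same order.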

How the data were processed

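Methylation was measured by bisulfite sequencing after capture with the SureSelectXT Methyl-Seq kit on a NovaSeq instrument, per the labels' protocols, in 1 Mdivi-1 and 1 DMSO library. The submitters' processing notes name BSMAP, with no version, and hg19. The table deposited by the authors gives, per position, each library's methylated fraction and coverage, the difference of the fractions, and annotation. The deposited coverage is taken as an estimated count, since 10751 positions hold a value that is not whole, and these were left out. The deposited DMSO fractions were whole reads for 33.3% of positions at the deposited coverage, within 1e-06. Their values correspond to a rescaling by the ratio of median coverages, 37 over 30, after shares were held to 3 decimals. This is inferred from the values, and no source used here states it. Methylated reads were recovered by inverting it, leaving 9 positions without a single count.

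A level is the mean percentage over CpGs, and each difference subtracts DMSO from Mdivi-1, in percentage points. Errors are binomial and cover counting only, since PCR copies are not independent molecules and the sources used here mention no molecular identifiers. A promoter is all CpGs the annotation gives to a gene, and a start region is a run of them without a gap over 2000 bp. The 10 genes and the lists were chosen with earlier results of these data known. All members were named, with the 3 largest absolute promoter differences of each other list and any member past the rule, and the 5 CpGs of smallest p. List symbols were matched through RefSeq synonyms (assembly GRCh38.p14, for names). Alternatives were other coverage minimums, pooled reads, the deposited fractions, centring by level, removal of very deep CpGs, removal of shared CpGs, island CpGs alone, and other sizes and CpG numbers. The blocks, their gaps, and the alternatives for the imprint maintenance genes were added after seeing the data. The promoters of marker genes of the cell line's own type are not reported here. Scripts were tested on simulated data. Tools were Numba 0.67.0 and SciPy 1.17.1 for the tests, pandas 2.3.3 and NumPy 2.4.6 for tables, and Matplotlib 3.10.9, under Python 3.11.15.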

Additional observations from a re-analysis of the deposited data

How the results depend on the processing

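With 1 library per group, no difference can be set against the spread between cultures, and depth limits the HYMAI/PLAGL1 island and L3MBTL1 island 2 most. No paired analysis was possible because each group has a single library. The count of called CpGs stayed at 0 under each alternative run. The count of islands past the rule of size, 1, was 0 at a minimum of 5, 20 or 30 reads and at a size of 20 points, and 2 without CpGs shared by several genes. The count of promoters past it, 0, was 1 at a size of 5 points. The count of blocks, 3, was 6 at gaps of 50 bp and 2 at gaps of 200 bp and at minimums of 5, 20 and 30 reads. Shares over all autosomal promoters, islands and blocks were not computed under these alternatives, so these counts have no background. The median promoter difference of the 10 genes, -0.524 points, was 0.398 at 30 reads, 1.33 without shared CpGs and 0.874 with island CpGs alone. These medians cover fewer promoters. HYMAI was not measured in any of these settings, PEG10 and SGCE not without shared CpGs, and DIRAS3 and NAP1L5 not with island CpGs alone. The sign of the median is not settled. The median of the other imprinted genes, 0.417 points, was 0.0651 with pooled reads and 0.0572 when centred by level. That of the imprint maintenance genes, 0.720 points, was 0.281 at 20 reads, 0.415 at 30 reads and 0.312 when centred by level. The cause of these shifts was not tested. Of 163 single differences of promoters and islands under alternatives, 8 moved beyond the 95% counting interval for independent CpGs and 7 changed sign. The MEST promoter moved at 20 and 30 reads and with pooled reads. Pooled reads also moved the L3MBTL1 promoter, PLAGL1 island 1 and the PEG10/SGCE island. Island CpGs alone moved the SGCE and L3MBTL1 promoters. The changes of sign were at the PLAGL1 promoter and GRB10 island 1, each at 5 and 30 reads, at PLAGL1 island 1 with pooled reads, at MEST island 2 when centred by level and at the L3MBTL1 promoter with island CpGs alone.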
